A study of Homo sapiens with 4 samples.

Results

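The genes of the AP-1 family of transcription factors were measured by RNA-seq in HaCaT, a human keratinocyte cell line that grows without limit in culture, left untreated. The 9 members, chosen by name but with earlier results of these data known, were JUN, JUNB, JUND, FOS, FOSB, FOSL1, FOSL2, ATF3 and BATF. Each had 1 of the 44591 rows of the count files. The series holds 4 biological replicates of 1 condition, grown with 12% fetal bovine serum by the labels (the study's methods give another percentage), and has no treated or control group. HaCaT is a single cultured line, so these values describe that line and not skin.

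AP-1 is a dimer of basic leucine zipper proteins. A Jun protein pairs with another Jun protein or with a Fos protein, whereas Fos proteins need a Jun partner to bind DNA. ATF3 and BATF pair with Jun proteins and bind the same or related sites. In many cells FOS, FOSB, JUN and ATF3 are immediate-early genes, which are transcribed briefly after serum, growth factors, ultraviolet light or other stress, while FOSL1, FOSL2 and JUND products persist longer. In epidermis AP-1 acts on genes of cell growth, wound repair, matrix breakdown and terminal differentiation.

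The total count was 73082279 in replicate 1 and 17056035 to 19745170 in replicates 2 to 4. Protein-coding genes took 76.1% of the counts of replicate 1 and 95.3% to 96.4% of the others, and levels are therefore given as TPM (counts per gene length, scaled to 1000000) over protein-coding genes only. Replicate 1 stood apart. Its Spearman correlation across the 12165 protein-coding genes with a mean TPM above 1, called detected, was 0.754 to 0.780 with the others and 0.944 to 0.967 among the others, a correlation across genes that are not independent replicates. In replicate 1 the difference from the other replicates was correlated with GC content at -0.51 across 11889 genes. The same count was found in 2 replicates for at most 0.608% of detected genes, so the libraries are distinct. All 12 keratinocyte markers were detected, led by KRT14 (TPM 6847 ± 561, SD, n = 4). The summed TPM was 5.20 to 12.3 for 7 fibroblast markers, 3.97 to 9.16 for 7 melanocyte markers, 11.6 to 52.1 for 9 immune markers and 0.859 to 2.36 for 5 endothelial markers. CD207, CD1A, CD3D, TYR, PECAM1, KDR and TEK were at 0 in every library, and CD68, which is not limited to immune cells, gave most of the immune sum.

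AP-1 proteins bind TGACTCA and TGACGTCA and also act on some of their own family's promoters. The promoter windows of RefSeq (GRCh38.p14), from 250 bases before to 50 after a start site, were searched on both strands for TGACTCA, TGACGTCA and TGACATCA, a variant known from the JUN promoter. Windows were given for 8 of the 9 members, FOSL1 being the exception, and 4 members held a match. They are shown 5′ to 3′ on the gene's strand, with the match in capitals, to let the promoters of members with different patterns be set side by side.
JUN: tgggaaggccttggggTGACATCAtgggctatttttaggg
ATF3: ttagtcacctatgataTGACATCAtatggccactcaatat
JUND: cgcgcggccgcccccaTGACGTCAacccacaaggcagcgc
FOSL2: attgtagTGACTCAtctcggg
The matches begin at base -67 of JUN (chr1:58784091-58784130 for the bases shown, minus strand), base -123 of ATF3 (chr1:212565268-212565307, plus strand), base -200 of JUND (chr19:18281799-18281838, minus strand) and base 5 of FOSL2 (chr2:28392855-28392875, plus strand), counted from the start site. Of all 35116 promoter windows, 4.95% held TGACTCA, 1.85% held TGACGTCA and 2.61% held TGACATCA. These shares are per window and per motif, and ATF3 had 2 windows, so they are no like background for 4 of 8 members. The match of JUN was known in advance, since the variant was searched as a known part of its promoter. No match was found in the windows of FOS, FOSB, JUNB and BATF, which says only that these letters are not in those windows. A match is a description of the sequence and not evidence of binding in these cells.

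JUNB had the highest mean level of the family. Its product pairs with Fos proteins and is generally a weaker activator than JUN. The gene (chromosome 19, 12902310 to 12904125, plus strand, in the files' coordinates, for which the submitters' processing notes name hg19) had 282, 349, 333 and 562 TPM in replicates 1 to 4, and averaged 382 ± 124 (SD, n = 4). It stood at percentile 95.8 to 98.3 of the detected genes in each replicate. These levels came from 4214 to 12438 counts.

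FOSL1, which encodes FRA-1, a Fos protein without the transactivation domain of FOS and a target of growth factor signalling, had the second highest mean (chromosome 11, 65659607 to 65667997, minus strand). Replicate 1 gave a TPM of 3.26, whereas replicates 2, 3 and 4 gave 572, 347 and 170, and the average was 273 ± 244 (SD, n = 4). It stood at percentile 92.4 to 98.3 of the detected genes in replicates 2 to 4 and at percentile 13.3 in replicate 1. The counts were 139 in replicate 1, the deepest library, and 6671, 5472 and 2217 in the others. Replicate 1 thus lay far below the other replicates, and without it the mean was 363 ± 202 (SD, n = 3). The sources used here do not say whether all 4 libraries were counted by the same rules, and the part of counting in the low value of replicate 1 was not tested. In bulk RNA, fewer cells with the transcript and less transcript per cell cannot be told apart either.

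JUND, a Jun protein expressed in most cell types, followed with a TPM of 64.7, 82.4, 106 and 135 in replicates 1 to 4 (97.1 ± 30.5, SD, n = 4; chromosome 19, 18390504 to 18392466, minus strand). FOSL2, which encodes FRA-2, had 110, 70.6, 39.1 and 80.4 (74.95 ± 29.2, SD, n = 4; chromosome 2, 28615779 to 28637516, plus strand). Replicate 1 was the lowest for JUND and the highest for FOSL2. FOSL2 overlaps an antisense gene, the long noncoding RNA gene FLJ31356 on the opposite strand and a sense intronic gene. These held at most 10, 10 and 47 counts in any replicate, beside 1401 or more for FOSL2. The antisense gene and FLJ31356 held the same count in each replicate, so they may not be separate genes. Whether counting used the strand is not given in the sources used here.

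JUN, the founding Jun protein and a substrate of the JNK kinases, had a TPM of 8.57 in replicate 1, against 61.7, 60.7 and 46.8 in replicates 2 to 4 (44.4 ± 24.9, SD, n = 4; chromosome 1, 59246463 to 59249785, minus strand). Replicates 2 to 4 were close to each other, with 56.4 ± 8.32 (SD, n = 3). ATF3, a stress-induced factor that often represses its targets, had 3.72, 22.3, 21.4 and 11.3 in replicates 1 to 4 (14.7 ± 8.83, SD, n = 4; chromosome 1, 212738676 to 212794119, plus strand). For both genes replicate 1 was the lowest and replicate 4 the next.

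FOS itself was low, with a TPM of 8.92, 5.23, 3.71 and 13.5 in replicates 1 to 4 (7.84 ± 4.36, SD, n = 4; chromosome 14, 75745481 to 75748937, plus strand). Unlike JUN, it was not low in replicate 1, and replicates 4 and 1 held the higher values. FOSB, the close relative of FOS, had 1.08, 1.35, 0.943 and 1.24 (1.16 ± 0.181, SD, n = 4; chromosome 19, 45971253 to 45978437, plus strand), from 32 to 99 counts. BATF, a partner of Jun proteins best known in lymphocytes (chromosome 14, 75988784 to 76013335, plus strand), had 0 counts in each of the 4 replicates. A count of 0 allows up to 3 counts, or a TPM of 0.131 in replicate 1 and 0.480 in replicate 2, and these limits cover counting error only. Of the 9 members, 8 had a mean TPM above 1, as did 63.3% of all protein-coding genes.

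**Figure D1:**
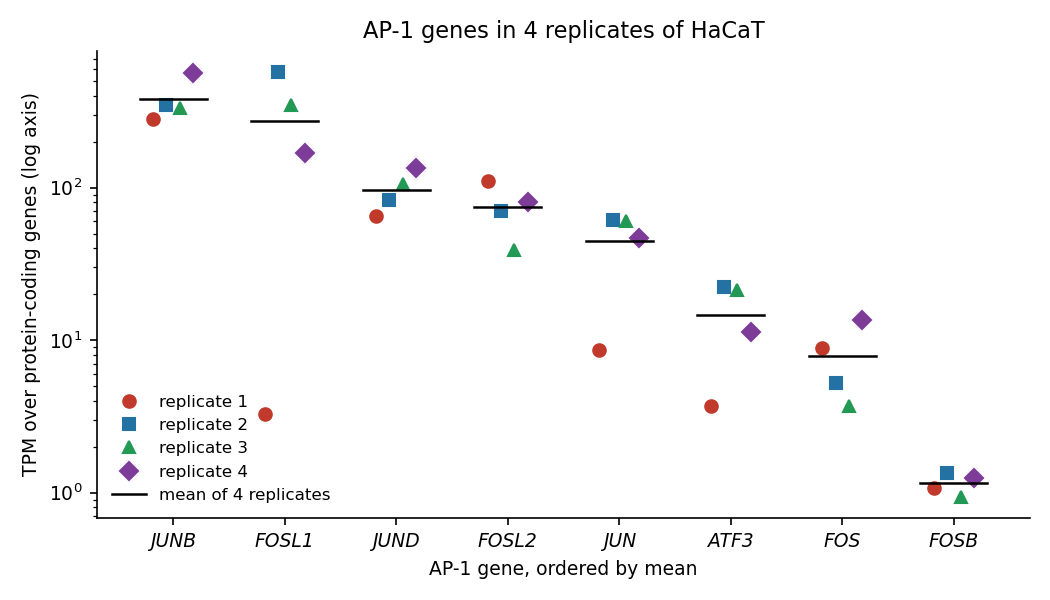
TPM over protein-coding genes on a log axis for 8 AP-1 genes in 4 replicates of HaCaT. Each symbol is 1 replicate and each black line the mean, and BATF, at 0 in all replicates, is left out. FOSL1 spans 3.26 to 572, while JUNB stays between 282 and 562.

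The order of the mean levels was JUNB, FOSL1, JUND, FOSL2, JUN, ATF3, FOS, FOSB and BATF. It was not the order within each replicate. FOSL1 was the highest member in replicates 2 and 3, and JUNB in replicates 1 and 4. Neighbours in the order were compared by the difference of log2(TPM + 1) within each replicate, with a two-sided exact sign-flip permutation test that cannot go below p = 0.13 with 4 replicates. The pairs were taken from the order of the means in these same 4 replicates, so the p-values are no separate evidence for that order. On this scale a difference of low genes is understated.

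JUN exceeded ATF3 by 1.47 ± 0.38 (SD, n = 4) on the log2 scale, and in 4 of 4 replicates (exact permutation p = 0.13, the smallest possible, and 0.33 after Benjamini-Hochberg adjustment over the 8 pairs). FOS exceeded FOSB by 1.91 ± 0.68 (SD, n = 4), also in 4 of 4 replicates, with the same exact permutation p. FOSB against BATF is no comparison, although it is 1 of the 8 pairs, since BATF had 0 counts throughout and any detected gene lies above it. Its outcome was thus fixed, and counting it lowers the adjusted p of JUN over ATF3 and of FOS over FOSB. For the other 5 pairs of neighbours the mean difference was smaller than its SD over the 4 replicates. JUNB minus FOSL1 was 1.75 ± 3.05 (SD, n = 4) and positive in 2 of 4 replicates. FOSL1 minus JUND was 0.22 ± 2.95, JUND minus FOSL2 0.41 ± 0.92, FOSL2 minus JUN 0.97 ± 1.80 and ATF3 minus FOS 0.71 ± 1.62 (SD, n = 4 each), and their exact permutation p-values were 0.38 to 0.88. Without replicate 2 or 3 the FOSL1 mean fell below that of JUND on this scale, with differences of -0.64 and -0.28. Without replicate 1 it was 1.60 ± 1.23 (SD, n = 3), larger than its spread. JUND minus FOSL2 turned to -0.60 for counts without length correction, but was 0.79 ± 0.60 (SD, n = 3) without replicate 1 and 1.29 ± 0.91 (SD, n = 4) with GENCODE coding exons as the length, both larger than their spread. The direction of FOSL1 minus JUND and of JUND minus FOSL2 thus depends on these choices. The order of the mean levels itself changed only for counts without length correction, with FOSL2 above JUND.

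Ratios of reads within a library do not depend on how the libraries are scaled. Per kilobase, FOSL1 had 0.0116 times the reads of JUNB in replicate 1 (95% Clopper-Pearson interval 0.00972 to 0.0137). It had 1.64 times those of JUNB in replicate 2 (1.58 to 1.70), 1.04 times in replicate 3 (1.00 to 1.08) and 0.302 times in replicate 4 (0.288 to 0.317). These intervals cover counting error only, and none of the 4 overlapped another. The ratio of JUNB to JUND moved much less, between 3.15 (2.99 to 3.32) in replicate 3 and 4.36 (4.19 to 4.53) in replicate 1. FOSL1 was the more abundant relative of FOS in replicates 2 to 4, at 109, 93.6 and 12.6 times the reads of FOS per kilobase. In replicate 1 FOS was above FOSL1, at 2.74 times (2.26 to 3.33).

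Most Jun transcripts in these cells came from JUNB. JUNB held 73.1% ± 5.54 (SD, n = 4) of the summed TPM of JUN, JUNB and JUND, and between 66.7% and 79.4% in single replicates. JUND held 18.6% ± 1.88 and JUN 8.34% ± 4.87 (SD, n = 4). Replicates 1 to 4 gave JUN shares of 2.41%, 12.5%, 12.1% and 6.29%. The share of JUND differed little between replicates, from 16.7% to 21.2%.

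The make-up of the Fos transcripts was less constant. FOSL1 held 2.65%, 88.1%, 88.8% and 64.1% of the summed TPM of FOS, FOSB, FOSL1 and FOSL2 in replicates 1 to 4. FOSL2 held 89.2% in replicate 1, and 10.9%, 9.99% and 30.3% in the others. FOSL1 and FOSL2 together thus gave most Fos transcripts in every replicate, with FOSL2 leading in replicate 1 and FOSL1 in the others. FOS held 0.805% to 7.25% and FOSB 0.209% to 0.877%. Both have a transactivation domain that FOSL1 and FOSL2 lack.

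**Figure D2:**
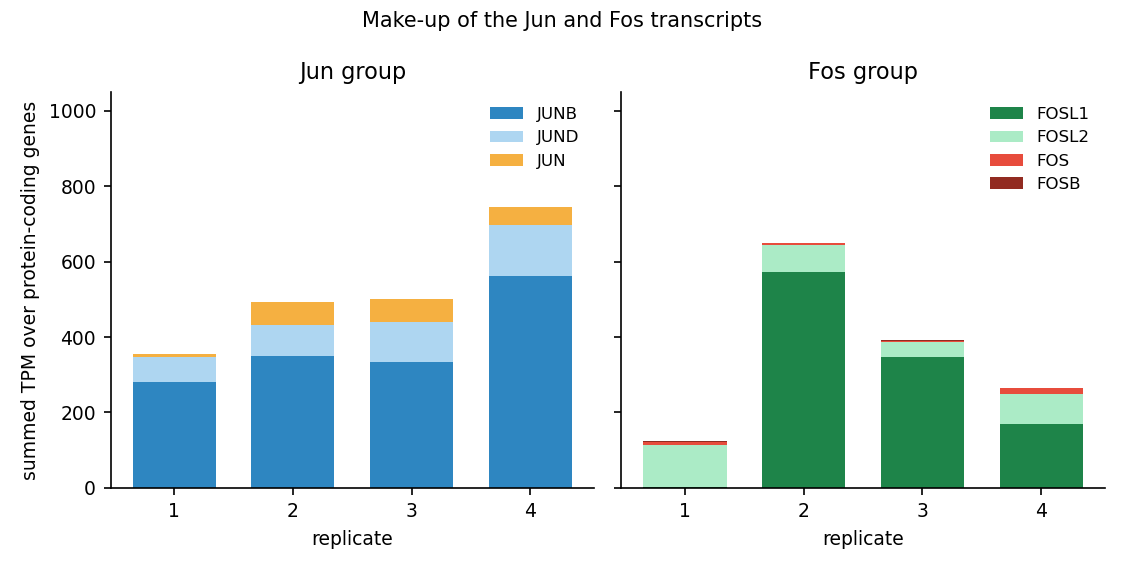
Summed TPM over protein-coding genes of the Jun group (left) and the Fos group (right) in each replicate, with colours for the genes. The Jun group is mostly JUNB throughout, and the Fos group is mostly FOSL1 in replicates 2 to 4 and mostly FOSL2 in replicate 1.

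The summed level of the Jun group was 355, 493, 500 and 744 TPM in replicates 1 to 4, and that of the Fos group was 123, 650, 391 and 265. The highest Jun sum was 2.10 times the lowest and the highest Fos sum was 5.28 times the lowest. The Jun sum divided by the Fos sum was 2.89, 0.759, 1.28 and 2.81 in the same order. The mean log2 ratio of Jun to Fos transcripts was 0.74 ± 0.94 (SD, n = 4), positive in 3 of 4 replicates and smaller than its spread (exact permutation p = 0.38 by the sign-flip test). It was 0.48 ± 0.95 without replicate 1 and 0.50 ± 0.97 without replicate 4, but 1.125 ± 0.67 without replicate 2 (SD, n = 3 each), which is larger than its spread.

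The members varied unequally between replicates of the same condition. On the log2(TPM + 1) scale the range over 4 replicates was 7.07 for FOSL1, 2.71 for JUN, 2.30 for ATF3, 1.62 for FOS, 1.47 for FOSL2, 1.05 for JUND, 0.99 for JUNB and 0.28 for FOSB. A range above 1, or 2-fold, was found for 6 of the 8 detected members and for 59.1% of all detected genes, so the number of such members was near the background. Their median range was 1.54, beside 1.16 over all detected genes. Only 74 of the 12165 detected genes had a wider range than FOSL1. Over replicates 2 to 4, a range above 1 was found for 3 members, FOSL1 (1.75), FOS (1.62) and FOSL2 (1.02), and for 22.7% of all detected genes. In these 3 replicates JUN had a range of 0.39. Replicate 3 was the lowest of the 4 for 40.1% of all detected genes, with a median difference of -0.23 from the others. Among the detected members it held the lowest value of FOSL2, FOS and FOSB only.

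In replicate 1, FOSL1, JUN, ATF3, JUND and JUNB were below all other replicates and FOSL2 was above them, while FOS and FOSB lay within their range. The 5 members below are 5 of 8, where 37.4% of all detected genes were below, and the 1 member above stands beside 40.2%. On log2(TPM + 1), replicate 1 minus the average of replicates 2 to 4 was -6.25 for FOSL1, lower than in all but 26 detected genes. It was -2.57 for JUN, with 439 genes lower, and -1.98 for ATF3, with 851 lower. It was -0.70 for JUND, -0.51 for JUNB, -0.06 for FOSB, 0.40 for FOS and 0.85 for FOSL2, beside a median of 0.03 over all detected genes. With 1 library against 3 of the same condition there is no group to test, and these are descriptions of that library.

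GC content moved with part of this. The GC content was 69.7% for JUND, 64.9% for JUNB, 60.0% for FOSL1, 57.7% for FOSB, 56.7% for JUN, 53.3% for FOSL2, 52.6% for FOS and 50.8% for ATF3. When each difference was taken from the median of genes with a like GC content, an alternative chosen after seeing the data, it was 0.37 for JUNB, 0.18 for JUND and 0.54 for FOSB, so the direction turned for these 3. It stayed at -5.72 for FOSL1, -2.01 for JUN and -1.90 for ATF3, and was 1.17 for FOSL2 and 0.72 for FOS. The median of the 8 detected members was -0.61 before this step and 0.27 after it. Over all rows in place of protein-coding rows, the median of all detected genes in replicate 1 moved to -1.27, and FOSL2 (-0.66) and FOS (-0.87) were then negative but above that median. The counts of genes below and above the others in replicate 1, here and for the lists, therefore hold for TPM over protein-coding rows.

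**Figure D3:**
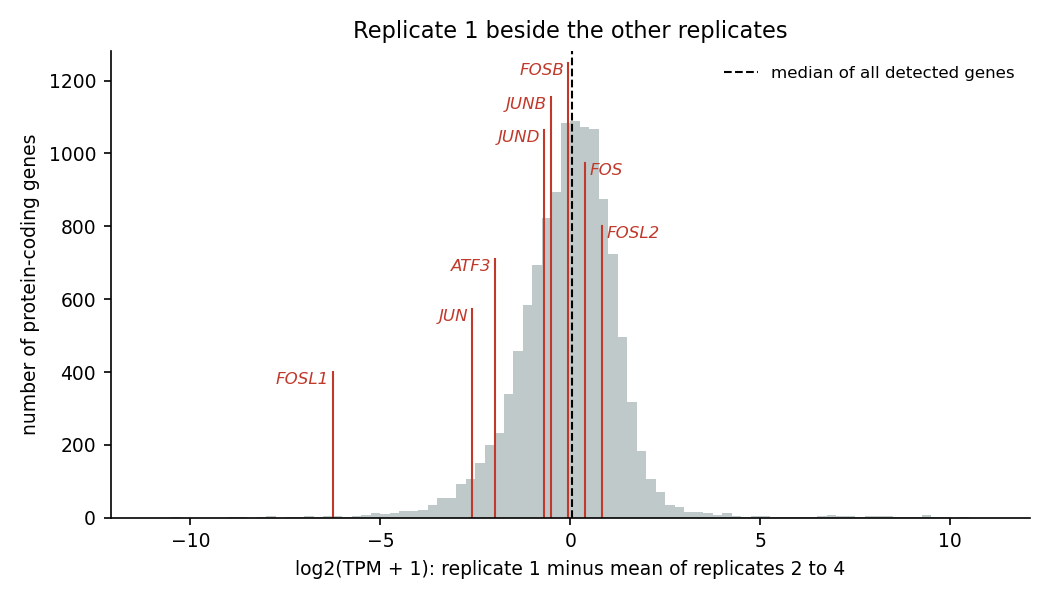
Histogram of the difference of log2(TPM + 1) between replicate 1 and the mean of replicates 2 to 4 for 12165 detected protein-coding genes. Red lines mark 8 AP-1 genes and their height has no meaning. FOSL1 lies at -6.25, far to the left of the bulk of the genes, and JUN at -2.57 and ATF3 at -1.98 lie in its lower tail.

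For each member with a range above 1, the 3 detected genes with the most similar pattern were found by the root mean square difference of log2(TPM + 1), centred on each gene's mean, over the 4 replicates. The gene nearest to JUN was IER3, itself an immediate-early gene, with a distance of 0.0341 and a TPM of 67.0, 421, 441 and 335 in replicates 1 to 4. ZNF598 and BANF1 followed. The genes nearest to ATF3 were ZNF777, SCNM1 and RRP12, those nearest to FOS were TP73, TENM4 and RHBDL1, those nearest to FOSL2 were CASC4, CFAP97 and ZFP90, and those nearest to JUND were IGFBP7, HSPA1A and TMEM160, at distances of 0.0223 to 0.0924. FOSL1 had no close neighbour. Its nearest genes lay at 0.490 to 0.531 and were NDUFC2-KCTD14, TNFAIP8L2-SCNM1 and LOC400927-CSNK1E, readthrough genes that share exons with other genes, each with a TPM under 1 in replicate 1. No gene of the files overlaps FOSL1, and the nearest, CCDC85B on the opposite strand, lies 500 bases away and held 1291, 1975, 5506 and 3126 counts in replicates 1 to 4. With 4 points such likeness describes these libraries only.

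Other immediate-early genes were read from a list of 30 symbols, of which 28 were found and 22 detected. The symbols not found, CCN1 and CCN2, are other names of CYR61 and CTGF, so no gene of the list was missing. In replicate 1, 16 of the 22 were below all other replicates (37.4% of all detected genes) and 2 were above (40.2%), with a median difference of -1.20. That median was -0.84 after the GC content was taken into account. EGR1, a zinc finger factor induced with FOS, had a TPM of 2.30, 60.1, 32.4 and 110 in replicates 1 to 4. CYR61, a secreted matrix protein gene induced by serum, had 2.17, 53.1, 46.3 and 63.5. Among genes named after their values were seen, DUSP6, a phosphatase induced by growth factor signalling, had 10.5, 130, 98.4 and 68.0, and DUSP4, a related phosphatase, had 2.0, 40.3, 23.0 and 15.9. Replicate 1 held the lowest value of each of these 4 genes, as it did for FOSL1 and JUN. The other DUSP genes of the list, named in the same way, did not share this size of difference. In replicate 1 DUSP1 (8.42 against 7.36 to 13.1) and DUSP2 (2.81 against 0.797 to 5.18) lay within the range of the others. DUSP5 was below them with a difference of -0.57, beside -3.07 for DUSP6. BTG2, an antiproliferative gene also induced by p53 and named in the same way, was highest in replicate 1 at 184, against 40.4 to 55.4. MCL1, a survival factor with the next highest mean of the list after IER3, had 187 to 252 in all 4 replicates. FOS, the gene most often read as the mark of this response, was not among the low genes of replicate 1.

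Genes described as AP-1 targets in epidermal cells were read from a list of 29 symbols, of which 28 were found and 25 detected. The symbol not found, IL8, is another name of CXCL8. In replicate 1, 13 of the 25 (52.0%) were below all other replicates, beside 37.4% of all detected genes, and 8 (32.0%) were above, beside 40.2%. The list thus split, and the median difference was -0.79, or -0.55 after the GC content was taken into account. IVL, which encodes involucrin of the cornified envelope, had a TPM of 202 in replicate 1 and 5.49, 4.06 and 14.9 in replicates 2 to 4. SPRR1B, another envelope precursor, had 71.6, 26.7, 3.59 and 4.77. The collagenase genes MMP1 and MMP13, named after their values were seen, were also highest in replicate 1, at 127 and 145 against at most 45.1 and 38.5 in the others. PLAUR, the urokinase receptor, and IL6 were named in the same way and were lowest in replicate 1, at 9.43 against 34.3 to 65.3 and at 0.727 against 5.08 to 15.8. EZR, which encodes ezrin, had 421 to 551 in all replicates, and CCND1, which encodes cyclin D1, had 270 in replicate 1 and 347 to 633 in the others. A range above 1 was found for 22 of the 25, beside 59.1% of all detected genes, and for 10 of them without replicate 1, beside 22.7%.

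Among 12 other dimer partners or related basic leucine zipper genes, 11 were detected. In replicate 1, 4 were below and 4 above the others (36.4% each), near the 37.4% and 40.2% of all detected genes. NFE2L2, which encodes NRF2 of the antioxidant response, had the highest mean (61.4 ± 15.1, SD, n = 4), followed by MAFK, a small Maf protein that pairs with it (52.7 ± 16.3, SD, n = 4). MAF had a TPM of 5.51 in replicate 1 and at most 0.273 in the others. DDIT3, which encodes the stress factor CHOP, had 69.4, 32.4, 53.4 and 15.2. BATF2, a relative of BATF named after its values were seen, had 0.0702, 3.53, 3.32 and 0.0573, from 1 to 70 counts, so that replicates 2 and 3 were high and replicates 1 and 4 low.

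All 16 upstream kinases and factors were detected, with 7 below and 7 above the others in replicate 1, or 43.8% each, near the 37.4% and 40.2% of all detected genes. The median difference was 0.10, and turned to -0.23 after the GC content was taken into account. RPS6KA1, which encodes the growth factor-activated kinase RSK1, had a mean of 108 ± 8.0 (SD, n = 4). Its transcript had a narrow range, 0.25 on the log2 scale, in the same libraries in which FOSL1 ranged over 7.07. The factors with the widest range were MEF2A, highest in replicate 1 at 47.7 against 8.57 to 18.7, and MEF2D, lowest there at 4.54 against 14.4 to 25.4. Transcript levels say nothing of the activity of a kinase.

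Genes for the turnover of Jun and Fos proteins leaned toward replicate 1. Of 8 found and detected, 7 were above the other replicates and 0 below, beside 40.2% and 37.4% of all detected genes. FBXW7, a ubiquitin ligase subunit that marks phosphorylated JUN for degradation, had 19.8 in replicate 1 and 2.23 to 4.69 in the others. ITCH, another ligase of Jun proteins, had 82.0 against 28.9 to 47.2. The highest means were those of CSNK2A1 (152 ± 30.7), a casein kinase subunit, and COPS5 (96.7 ± 19.7, SD, n = 4 each), a signalosome subunit that binds JUN. The median difference was 0.50, and 0.26 after the GC content was taken into account over the 7 genes with a value.

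**Figure D4:**
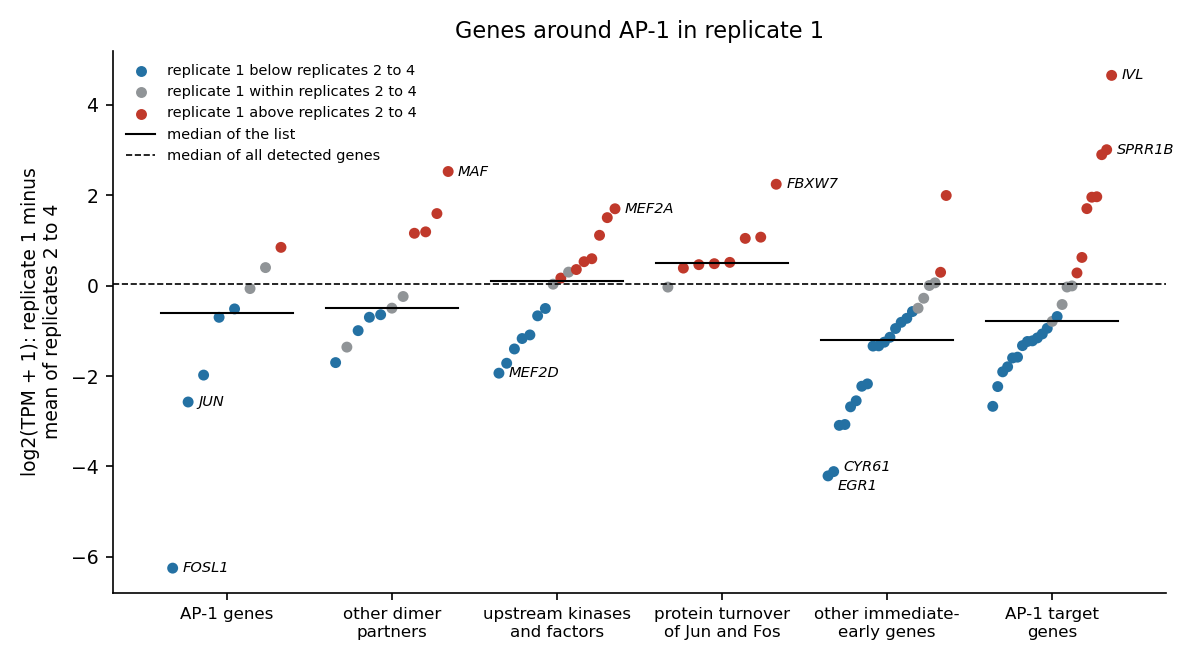
Difference of log2(TPM + 1) between replicate 1 and the mean of replicates 2 to 4 for each detected gene of 6 lists. Colours give whether replicate 1 was below, within or above the range of the others, black lines the median of a list and the dashed line the median of all detected genes. The other immediate-early genes lie mostly below the dashed line, the AP-1 targets on both sides, and the turnover genes mostly above it.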

How the data were processed

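RNA-seq of 4 HaCaT replicates was used. The submitters' processing notes name the build hg19 and the aligners HISAT2, TopHat2, Bowtie2 and HISAT, without roles. How reads were counted, and against which annotation, is not given in the sources used here. For every replicate the authors deposited read counts with a length for each gene, together with RPKM for replicates 1 and 2 and TPM for replicates 3 and 4. Since the deposited RPKM and TPM are different units, TPM over the 19233 protein-coding rows was computed from counts and lengths in all 4.

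Levels were compared on log2(TPM + 1). Since there is 1 condition, no test between conditions was run. The tests were those of neighbouring members and of the Jun against the Fos group within replicates, and Dixon's test. p-values measure only the spread between these samples. The members, lists and tests were chosen with earlier results of these data known. Named from each list were the 2 genes with the highest mean TPM and the 2 with the widest range, of which 1 gene is not reported here. Other genes, KRT14 and CD68 among them, were named after their values were seen. The intervals of ratios are Clopper-Pearson, and since no molecular identifiers are stated, PCR copies may count more than once. GC content came from the longest protein-coding transcript of GENCODE 29 by gene name (97.7% of detected genes). Alternatives were other scalings and lengths, pseudocounts of 0.1 and 5, other detection limits and leaving out each replicate. Scripts were tested on simulated data. The software was SciPy 1.17.1 and pandas 2.3.3 on NumPy 2.4.6 and Python 3.11.15, with figures by matplotlib 3.10.9.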

Additional observations from a re-analysis of the deposited data

Results flagged for a closer look

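Dixon's test at its 95% limit was applied to the 4 replicates of 37 quantities. It singled out 1 replicate in 4 of them, where chance does so in about 1 of 20, or 1.85 here. The quantities are not independent, and some, CYR61 and MAF among them, were named for a wide range in these same values. Replicate 1 was also the lowest for 37.4% and the highest for 40.2% of all detected genes. The 1.85 is therefore no like background for the 4. All 4 were values of replicate 1 on the log2(TPM + 1) scale. JUN was at 3.26 there, with a gap of 0.856 of its range, IER3 at 6.09 (0.854) and CYR61 at 1.66 (0.898), each as the lowest replicate, and MAF was at 2.70 (0.901), as the highest. FOSL1 did not pass this limit, since replicates 2 to 4 were themselves spread.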

How the results depend on the processing

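Of 523 values recomputed under other settings, 477 kept their direction and, where there was no test, moved by less than the SD between replicates (counts by less than 1.5 times), 36 moved further and 10 changed direction. The ratio of the Jun to the Fos group, the shares within a group and the replicates led by JUNB cannot change when whole libraries are rescaled. Part of the 477 was thus fixed in advance and is no evidence of stability. Tested differences were judged by direction only, since no p could fall below 0.13, and could change in size, as FOSB minus BATF did between 0.30 and 3.64 with the pseudocount. The order of mean levels was the same with each other scaling, with coding exons of GENCODE as the length and without any one replicate, except that counts without length correction placed FOSL2 above JUND (JUND minus FOSL2, -0.60). Leaving out each replicate in turn moved FOSL1 minus JUND between -0.64 and 1.60, the number of replicates led by JUNB between 1 and 2, the members with a range above 1 between 3 and 6 (3 without replicate 1) and the members above the others in replicate 1 between 1 and 2. It moved the genes with a range above 1 between 3 and 9 among dimer partners, 4 and 9 among upstream genes, 1 and 4 among turnover genes, 6 and 16 among immediate-early genes and 10 and 22 among targets, the lowest value in each case without replicate 1. With TPM over all rows or the deposited units, 0 members were above the others in replicate 1 and 15 upstream genes had a range above 1, as had 7 turnover genes with the deposited units. In replicate 1, FOSL2 and FOS then had differences of -0.66 and -0.87 (all rows) and -0.18 and -0.49 (deposited units), beside medians of -1.27 and -0.85 over all detected genes. Both settings rescale each library as a whole, so the genes of a library move in the same direction. Why protein-coding genes took a lower share of the counts in replicate 1 was not tested. Within bins of GC content the differences of JUNB (0.37), JUND (0.18) and FOSB (0.54) changed sign. FOSL1 stayed negative in every setting, between -7.18 and -5.31. No paired analysis was possible because the labels give a single group, so no groups could be paired by replicate number. Genes were compared within replicates throughout. FOSB, at 32 to 99 counts, is the detected member that depth limits most.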
